A study of Mus musculus with 3 samples.

Results

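Ptprc, Hnrnpll and Ptprcap were followed in polyA-selected RNA of activated regulatory T cells, the Foxp3-dependent CD4 lineage that restrains other lymphocytes. They are 3 genes of the 55536 mouse genes of the M21 annotation, chosen by name as the gene of the phosphatase CD45, a splicing repressor of its variable exons and a protein bound to it. The donor is labelled as male, 4 months old and of the strain Foxp3CreERT2 x Rosa26YFP, in which the Foxp3 locus drives an inducible Cre recombinase and the Rosa26 locus carries a fluorescent reporter. The labels give bone marrow haematopoietic cells as the origin, name no treatment or time, and call the 3 libraries technical replicates 1, 2 and 3 of biological replicate 1. There is 1 group and no control, so levels, transcript shares and the spread between libraries are given, and no contrast between conditions.

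CD45 is a receptor type tyrosine phosphatase on all nucleated blood cells. In T cells it removes the inhibitory phosphate from the kinase Lck and so sets the threshold of T cell receptor signalling. Exons 4, 5 and 6 of Ptprc encode the A, B and C segments of its outer, heavily glycosylated stalk, and cells splice them in or out: B cells carry a long form known as B220, and activated and memory T cells carry mostly the short form CD45RO that lacks all of them. Hnrnpll encodes hnRNP LL, an RNA-binding protein that silences these exons in activated T cells in mouse and human. Ptprcap encodes a small lymphocyte transmembrane protein that associates with CD45.

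The libraries held 10981924, 9700630 and 6667391 gene-assigned fragments in replicates 1, 2 and 3. T cell receptor and CD4 genes were detected throughout, with 6 of 6 markers at a TPM (a length-scaled level relative to all transcripts of the library) of at least 1 in every library, as were 5 of 5 regulatory T cell markers including Foxp3 at 29.5, 28.7 and 49.8 TPM. The libraries differed from each other beyond counting error, with a chi-square per degree of freedom of 11.4 for replicates 1 and 2, 30.7 for replicates 1 and 3 and 30.3 for replicates 2 and 3. Summed haemoglobin TPM was 789.6, 2.77 and 21.2, and summed plasma cell marker TPM 53.1, 9.62 and 101.04, in replicates 1, 2 and 3. Nothing in the labels says that the libraries came from separate animals or cultures, so every p-value below measures only the spread between these libraries. In bulk RNA, fewer cells of a type and less RNA per cell cannot be told apart.

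The variable exons of Ptprc are shown because the shares below turn on them. Ptprc lies on chromosome 1 of mm10 at chr1:138062861-138175708, minus strand, and its exon numbers here are those of Ptprc-207, the M21 transcript that holds every variable exon. Exon 4 is at chr1:138122456-138122584 (129 nt, 43 codons), exon 5 at chr1:138120020-138120166 (147 nt, 49 codons), exon 6 at chr1:138117754-138117894 (141 nt, 47 codons) and exon 7 at chr1:138116954-138117025 (72 nt, 24 codons). Each length is a multiple of 3, so leaving out any of them keeps the reading frame. The sequences, from the GENCODE M21 transcripts, read 5′ to 3′ on the transcript strand, with each CACA in capitals since hnRNP L and hnRNP LL are known to bind CA-rich RNA.
Exon 4: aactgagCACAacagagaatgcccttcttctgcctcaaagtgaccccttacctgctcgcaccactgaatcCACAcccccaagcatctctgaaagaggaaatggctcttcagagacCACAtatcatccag
Exon 5: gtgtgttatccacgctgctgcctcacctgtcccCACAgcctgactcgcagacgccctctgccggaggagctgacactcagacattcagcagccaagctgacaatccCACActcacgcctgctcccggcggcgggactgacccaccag
Exon 6: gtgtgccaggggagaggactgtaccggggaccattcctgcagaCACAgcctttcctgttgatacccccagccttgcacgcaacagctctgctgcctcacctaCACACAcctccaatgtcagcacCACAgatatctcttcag
Exon 7: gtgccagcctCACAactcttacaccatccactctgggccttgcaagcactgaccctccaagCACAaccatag
CACA, searched on the transcript strand with overlapping matches counted, occurs 3 times in exon 4, 2 times in exon 5, 4 times in exon 6, where 2 of them overlap, and 2 times in exon 7. Among internal exons of M21 within 10 nt of the same length, at least as many matches were found in 3.78% of those like exon 4, 17.7% like exon 5, 1.14% like exon 6 and 5.7% like exon 7. At least 1 match was found in 45.0%, 50.6%, 48.8% and 28.5% of these exons, in the same order. A match is a string of letters and not a binding site. Exon 5 had the highest GC content at 63.9%, against 50.4% in exon 4, 56.7% in exon 6 and 55.6% in exon 7.

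The annotation tells the forms apart by a few junctions. Of 13 Ptprc transcripts in M21, 5 are protein-coding and 8 retain an intron, and 4 span exons 3 to 8. Ptprc-203 (4702 nt, 30 exons) joins exon 3 to exon 7 and so lacks exons 4 to 6, as the CD45RO form does. Ptprc-204 (4611 nt, 29 exons) joins exon 3 to exon 8 and lacks exon 7 as well. Ptprc-213 holds exons 5 and 7 but neither exon 4 nor exon 6, as the form CD45RB does, and is a partial model of 702 nt and 8 exons. Ptprc-207 (5074 nt, 33 exons) holds all of exons 4 to 7, as the long form of B cells does. The junctions that set Ptprc-203, Ptprc-204 and Ptprc-213 apart, each held by 1 model alone, are shown with 18 bases of each exon, the downstream exon in capitals.
Exon 3 to exon 7, held by Ptprc-203: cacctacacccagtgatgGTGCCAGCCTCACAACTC
Exon 3 to exon 8, held by Ptprc-204: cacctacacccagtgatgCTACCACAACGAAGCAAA
Exon 3 to exon 5, held by Ptprc-213: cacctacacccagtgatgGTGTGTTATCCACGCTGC
Exon 5 to exon 7, held by Ptprc-213: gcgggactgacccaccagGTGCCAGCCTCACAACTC
Ptprc-203 and Ptprc-204 share 27 exons and differ by 91 nt, of which 72 nt are exon 7, 6 nt the first exon and 13 nt the last exon. Reads that miss those places cannot separate them, and the assignment rests on the model of each quantification. M21 holds no full-length transcript with exon 5 as its sole variable exon besides exon 7, and none with exons 4 and 5 or 5 and 6 alone, so reads of such RNAs outside the 702 nt of Ptprc-213 fall to other models. Junction reads were not analysed here.

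**Figure D1:**
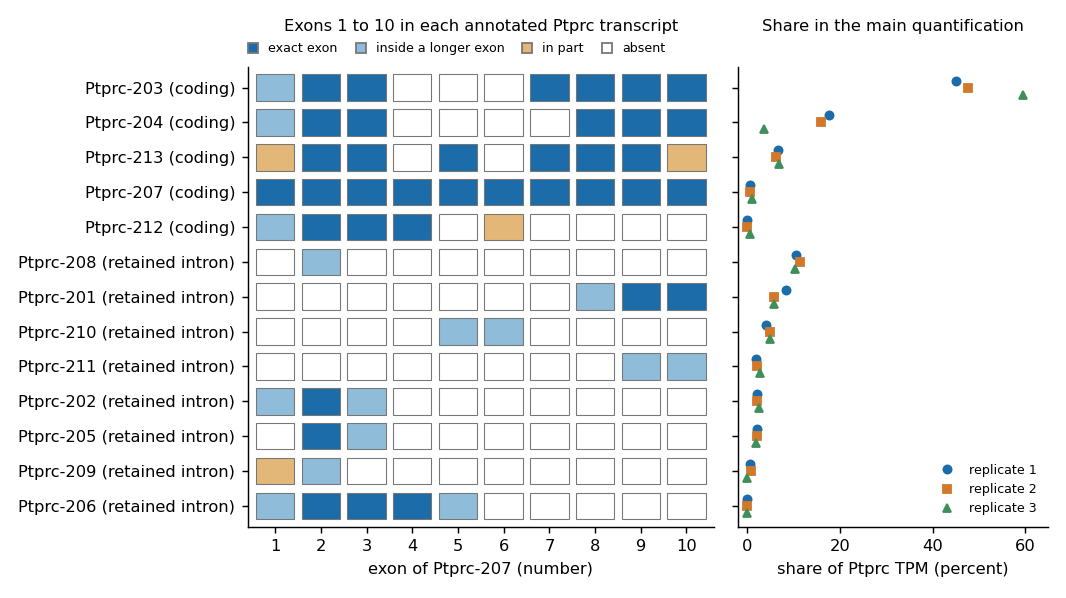
Left, which of exons 1 to 10 (numbered as in Ptprc-207, x axis) each of the 13 annotated Ptprc transcripts holds, down the page: as the exact exon, inside a longer exon, in part or not at all. Right, the share of Ptprc TPM in percent that the main quantification gave to each, with 1 point per replicate. Ptprc-203 holds the highest share in every replicate (45.1 to 59.5%), and Ptprc-204 in replicate 3 (3.68%) sits below replicates 1 and 2.

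Ptprc was among the most abundant genes of these cells. It measured 889.5, 1028 and 746.2 TPM in replicates 1, 2 and 3, a mean of 887.9 ± 141 TPM (SD, n = 3 libraries), which ranked 173 among all genes and 137 among those with a protein-coding transcript. Replicate 3 was lowest and replicate 2 highest. A second deposited quantification, made straight from the read files, gave 449.6, 545.7 and 425.6 TPM with the same order of libraries and rank 248 among all genes. Each quantification is relative to all transcripts it holds, and the 2 do not differ by 1 factor common to all genes. Hnrnpk, for example, averaged 1504 TPM in the main and 758.2 TPM in the second, and Hnrnpl 146.0 and 160.5 TPM. The cause was not tested, and levels are compared only within each quantification.

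Ptprcap, on chromosome 19 at chr19:4153604-4156751 of the plus strand, stood at the same height as Ptprc. Its levels were 795.3, 985.4 and 861.4 TPM, a mean of 880.7 ± 96.5 TPM (SD, n = 3 libraries) and rank 174 among all genes, next to rank 173 of Ptprc. In the second quantification it measured 443.2, 556.4 and 521.2 TPM and ranked 230. The ratio of Ptprcap to Ptprc TPM was 0.894, 0.958 and 1.15 in replicates 1, 2 and 3, and 0.986, 1.02 and 1.22 in the second quantification. The order of this pair turned round between libraries, and their means differ by less than the SD of either. Exons of Coro1b, on the same strand, and of Rps6kb2, on the opposite strand, overlap those of Ptprcap in M21. Reads at the Coro1b overlap may be shared under any strand setting. No source used here gives the strand setting of the counting, so reads at the Rps6kb2 overlap may be shared too. The M4 gene table, with 9083, 9158 and 6327 reads on Ptprcap, put it, if those reads are taken to cover coding sequence alone, at 1532 ± 124 per coding base (scaled as TPM), against 942.5 ± 125 for Ptprc (SD, n = 3 libraries each).

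Nearly all of Ptprcap was 1 transcript. Ptprcap-201 (927 nt) took 99.9%, 99.96% and 100% of the gene in the main quantification and 100% in the second. Ptprcap-202 (1082 nt) was at 0.89 and 0.38 TPM in replicates 1 and 2 and was listed at 0 in replicate 3 and throughout the second quantification.

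Hnrnpll, on chromosome 17 at chr17:80029487-80062334 of the minus strand, was present at a far lower level. It measured 17.4, 18.1 and 20.3 TPM, a mean of 18.6 ± 1.498 TPM (SD, n = 3 libraries), which ranked 5779 among all genes and 5320 among those with a protein-coding transcript. The second quantification gave 10.61, 11.9 and 14.0 TPM and rank 6244. Replicate 3 was highest in both. Ptprc TPM was 51.1, 56.8 and 36.8 times that of Hnrnpll in replicates 1, 2 and 3, and 42.4, 45.9 and 30.4 times in the second quantification, lowest in replicate 3 in both.

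**Figure D2:**
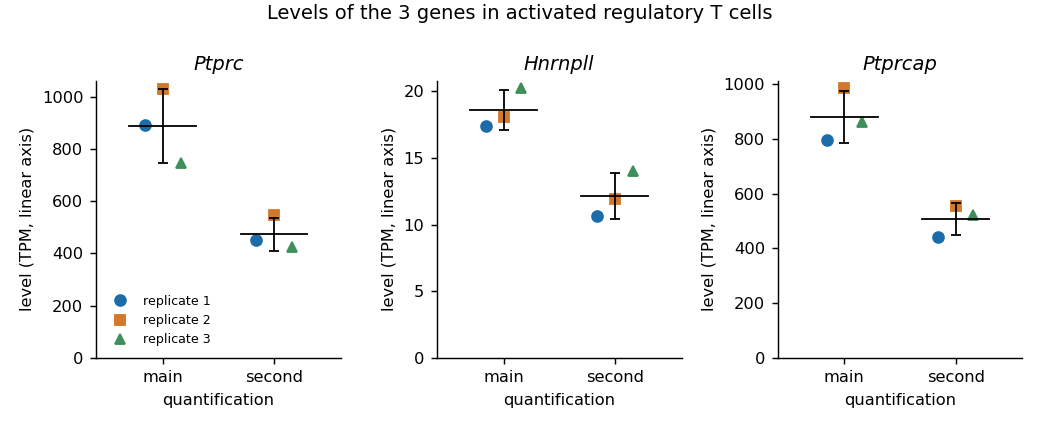
Level in TPM (y axis, linear, from 0) of Ptprc, Hnrnpll and Ptprcap in each of 3 replicates, in the main and the second quantification. Lines are means and bars are SDs over the 3 replicates. Ptprc and Ptprcap average 887.9 and 880.7 TPM in the main quantification and Hnrnpll 18.6 TPM.

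Differences between libraries were tested for each gene against counting noise alone, by a chi-square test of rounded expected counts with TMM scaling. At an adjusted p below 0.05 it called 8492 of 12997 genes, which is 65.3%. All 3 of 3 members were called. Ptprc differed by 1.28 times between its highest library (replicate 2) and its lowest (replicate 3), adjusted p = 3.35e-139. Ptprcap differed by 1.14 times, with replicate 2 highest and replicate 1 lowest, adjusted p = 7.28e-10. Hnrnpll differed by 1.22 times, with replicate 3 highest and replicate 2 lowest, adjusted p = 0.0485, and this call was lost without replicate 2 (adjusted p = 0.113) and without replicate 3 (adjusted p = 0.577). The median gene tested differed by 1.44 times, so each member varied less than that. This median and the 65.3% include genes averaging as few as 10 counts. There counting noise widens the range and hides more differences, and neither value was taken at like depth. When the variance also held edgeR's trended dispersion, 149 genes (1.15%) and none of the members were called. Unadjusted p in that test was 0.667 for Ptprc, 0.897 for Ptprcap and 0.807 for Hnrnpll, with an adjusted p of 0.99999 for each. That dispersion was estimated from these same 3 libraries, so the lack of a call does not show that a member is stable. Summed T cell marker TPM moved with Ptprc toward replicate 3, at 10589, 9917 and 6935 in replicates 1, 2 and 3, and its part in the lower Ptprc of replicate 3 was not tested.

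Most Ptprc TPM was assigned to annotated transcripts without exons 4, 5 and 6. These may also take reads of RNAs that M21 does not hold in full length. Ptprc-203 and Ptprc-204 together took 62.9%, 63.7% and 63.2% of Ptprc TPM in replicates 1, 2 and 3, a mean of 63.3 ± 0.432% (SD, n = 3 libraries). The second quantification gave 63.4%, 62.2% and 61.4% for the same sum. In TPM the sum was 559.1, 655.0 and 471.6 in the main quantification. Its share moved by under 1 percentage point between libraries in the main quantification, while the Ptprc level moved by 1.38 times.

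Within this sum the replicates parted. Ptprc-203, which keeps exon 7, had 401.1, 490.2 and 444.1 TPM, which is 45.1%, 47.7% and 59.5% of Ptprc (the deposited IsoPct). Ptprc-204, which skips exon 7, had 158.0, 164.7 and 27.4 TPM, which is 17.8%, 16.02% and 3.68% of Ptprc. The mean of replicates 1 and 2 was 5.88 times the value of replicate 3 for Ptprc-204, and replicate 3 lay between replicates 1 and 2 for Ptprc-203. The second quantification showed the same, with 204.4, 258.6 and 248.2 TPM for Ptprc-203 (45.5%, 47.4% and 58.3%) and 80.7, 80.7 and 13.3 TPM for Ptprc-204 (17.9%, 14.8% and 3.13%).

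Both shares passed the test of a difference between libraries, which adds the deposited uncertainty of assigning reads to the counting error. By this test 4013 of 27071 transcripts had a share that differed at an adjusted p below 0.05, which is 14.8%. For Ptprc-204 the share of Ptprc counts was 19.96% ± 1.19, 18.2% ± 1.24 and 4.19% ± 1.06 (posterior SD within each library), adjusted p = 4.88e-23. For Ptprc-203 it was 51.7% ± 1.27, 55.2% ± 1.29 and 69.2% ± 1.20, adjusted p = 6.51e-21. Replicate 3 decides both: without it the range of Ptprc-204 was 1.79 percentage points (adjusted p = 0.711) and that of Ptprc-203 was 3.45 percentage points (adjusted p = 0.392). The full range of Ptprc-204 was 15.8 percentage points, against a median of 5.88 points over all transcripts tested, and 5574 of them (20.6%) had a range at least as wide. Among the 2556 transcripts of genes with at least 0.1 of the mean count of Ptprc, 97 (3.8%) did. That set was matched on gene count and not on share, and a transcript with a small share in every library cannot range so widely. Replicate 3 had the fewest fragments and the highest plasma cell marker sum. Of the 5 regulatory T cell markers Foxp3 and Ctla4 were highest there, at 1.97 and 3.17 times their lowest library after TMM scaling. Il2ra, Ikzf2 and Tnfrsf18 were lowest there, with their highest library at 1.10, 1.36 and 1.83 times replicate 3. Ctla4, at 190.2, 249.6 and 612.0 TPM in replicates 1, 2 and 3, was the only marker of the 5 called with the trended dispersion (adjusted p = 0.00152). The summed TPM of the 5 was 1481, 1579 and 1534. The part of these in the result was not tested.

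**Figure D3:**
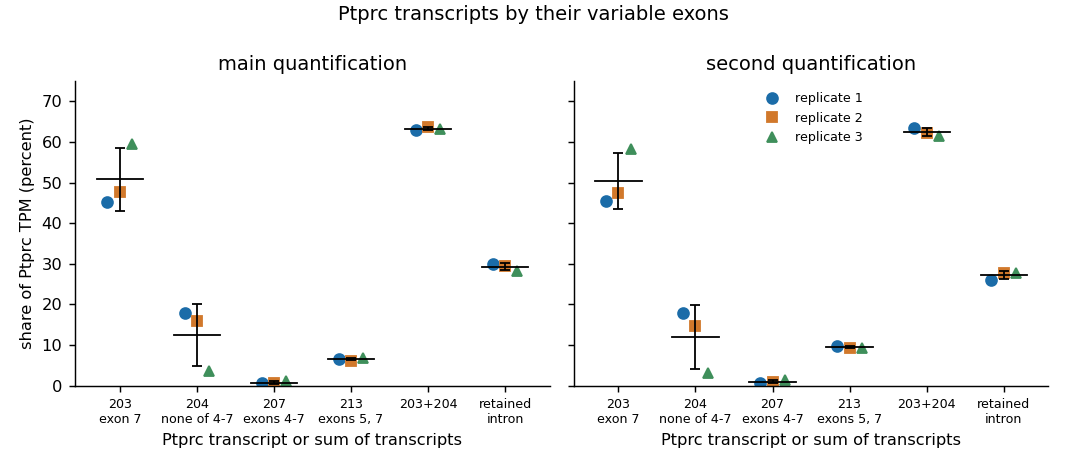
Share of Ptprc TPM in percent (y axis) of the 4 transcripts that span exons 3 to 8, of Ptprc-203 and Ptprc-204 summed and of the 8 retained-intron transcripts summed (x axis), in the main and the second quantification. Points are replicates, lines are means and bars are SDs. The sum of Ptprc-203 and Ptprc-204 stays between 61.4 and 63.7% while its parts move in replicate 3.

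Exon 5 marked the next of the spanning transcripts. Ptprc-213, the model with exon 5 but not exons 4 and 6, had 59.1, 63.4 and 51.1 TPM, which is 6.64%, 6.17% and 6.85% of Ptprc. The second quantification gave it 44.2, 51.0 and 39.9 TPM, or 9.83%, 9.34% and 9.36%. It stood below Ptprc-204 in replicates 1 and 2 and above it in replicate 3, in both quantifications. Its share of counts did not pass the test of a difference between libraries (adjusted p = 0.880). Its TPM rests on 276.8, 247.3 and 148.9 expected counts over a model of 702 nt, and a short model turns few counts into a high TPM.

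The long form had the lowest TPM of the 4 spanning transcripts in every library. Ptprc-207, with all of exons 4 to 7, had 5.46, 6.25 and 7.90 TPM, which is 0.61%, 0.61% and 1.06% of Ptprc, and in the second quantification 3.12, 4.26 and 5.88 TPM, or 0.694%, 0.782% and 1.38%. Replicate 3 was highest in both, but the share of counts did not pass the test between libraries (adjusted p = 0.573). It rests on 239.4, 225.2 and 210.3 expected counts with posterior SDs of 53.8, 49.98 and 57.4. By counts Ptprc-207 stood below Ptprc-213 in replicates 1 and 2 and above it in replicate 3, in both quantifications. B cells, which are known for this form, were represented by 5 of 7 markers at 1 TPM or more in every library and by a summed marker TPM of 110.6, 78.5 and 92.0, of which Cd79b took 60.8, 50.9 and 55.6. Their part in the Ptprc-207 level was not tested.

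Read by exon over the 4 transcripts that span exons 3 to 8, exon 4 was included at 0.876%, 0.862% and 1.49% of their TPM in replicates 1, 2 and 3. Exon 6 has the same values, because Ptprc-207 alone holds either of them among these transcripts. Exon 5 was included at 10.3%, 9.62% and 11.1%, and at 14.2%, 14.0% and 14.9% in the second quantification. Exon 7 was included at 74.7%, 77.3% and 94.8%, and at 75.7%, 79.5% and 95.7% in the second quantification, where replicate 3 again stands above replicates 1 and 2. Among these transcripts, those with exon 4 or exon 6 also hold exon 5, and those with exon 5 also hold exon 7. The order of inclusion, exon 7 above exon 5 and exon 5 above exons 4 and 6, is therefore fixed by the annotation.

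Transcripts with a retained intron took 29.9%, 29.5% and 28.2% of Ptprc TPM, or 265.9, 303.4 and 210.7 TPM, and 26.1%, 27.7% and 27.8% in the second quantification. Ptprc-208, a single stretch of 3213 nt around exon 2, led them with 94.5, 118.3 and 77.3 TPM. Ptprc-201, which starts ahead of exon 8 and runs to the 3′ end of the gene, had 74.1, 60.1 and 42.9 TPM in the main quantification but 18.03, 18.03 and 13.3 TPM in the second, where its share was 4.01%, 3.304% and 3.13% against 8.33%, 5.85% and 5.75%. Ptprc-210, which covers exons 5 and 6 with the introns around them, had 37.0, 52.0 and 36.2 TPM.

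The remaining models were low. Ptprc-202 was at 19.0, 21.4 and 18.6 TPM, Ptprc-205 at 19.0, 21.7 and 14.8 TPM, and Ptprc-211 at 17.3, 22.0 and 20.9 TPM. Ptprc-209 had 5.12 and 7.90 TPM in replicates 1 and 2 and was listed at 0 in replicate 3. Ptprc-212, a partial coding model of 415 nt with exon 4 and part of exon 6, had 4.88 TPM in replicate 3 from 6.64 expected counts and was listed at 0 elsewhere in both quantifications. Ptprc-206, with exon 4, was listed at 0 in every library of both.

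In all, 5 of the 11 Ptprc transcripts tested had a share that differed between libraries, against the 14.8% of all transcripts. Besides Ptprc-203 and Ptprc-204 these were Ptprc-201, with a share of counts of 11.7%, 8.32% and 8.21% (adjusted p = 4.25e-07), Ptprc-210, with 3.38%, 4.15% and 4.00% (adjusted p = 5.00e-05), and Ptprc-211, with 1.61%, 1.79% and 2.35% (adjusted p = 6.99e-06). Replicate 1 decides the first pair: without it the adjusted p was 0.957 for Ptprc-201 and 0.723 for Ptprc-210. Without replicate 3 it was 0.446 for Ptprc-211. The shares of a gene sum to a whole, so these transcripts are not independent of each other. The 14.8% also covers genes averaging as few as 50 counts, where a difference in share is harder to call. No rate at the depth of Ptprc was taken.

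Hnrnpll has 7 transcripts in M21, of which 2 are protein-coding, 1 is marked for nonsense-mediated decay and 4 retain an intron. The coding transcript Hnrnpll-205 (3009 nt) had 9.38, 7.73 and 7.88 TPM in replicates 1, 2 and 3, which is 53.9%, 42.7% and 38.9% of the gene, and 3.63, 3.96 and 3.17 TPM in the second quantification (34.2%, 33.3% and 22.6%). The other coding transcript, Hnrnpll-201, was listed at 0 in the main quantification and at 0.914, 0 and 0.550 TPM in the second. Transcripts with a retained intron took 36.2%, 49.3% and 49.8% of Hnrnpll TPM, and 40.7%, 54.8% and 55.4% in the second quantification.

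Seen by coding transcripts, replicate 3 was not the highest library for Hnrnpll. The coding sum was 9.38, 7.73 and 7.88 TPM in the main quantification and 4.55, 3.96 and 3.72 TPM in the second, with replicate 1 highest in both, while the retained-intron sum was 6.31, 8.92 and 10.1 TPM and 4.32, 6.52 and 7.76 TPM, with replicate 3 highest in both. None of the 6 Hnrnpll transcripts tested had a share that passed the test between libraries, nor did Ptprcap-201, the only Ptprcap transcript tested, and 0 of these had an unadjusted p below 0.05. For Hnrnpll-205 the share of counts was 53.9% ± 4.68, 43.1% ± 4.77 and 39.1% ± 6.89 (posterior SD within each library), adjusted p = 0.404. The gene had 441, 374 and 311 expected counts, so its transcript shares are far less precise than those of Ptprc with 31398, 29568 and 15804.

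**Figure D4:**
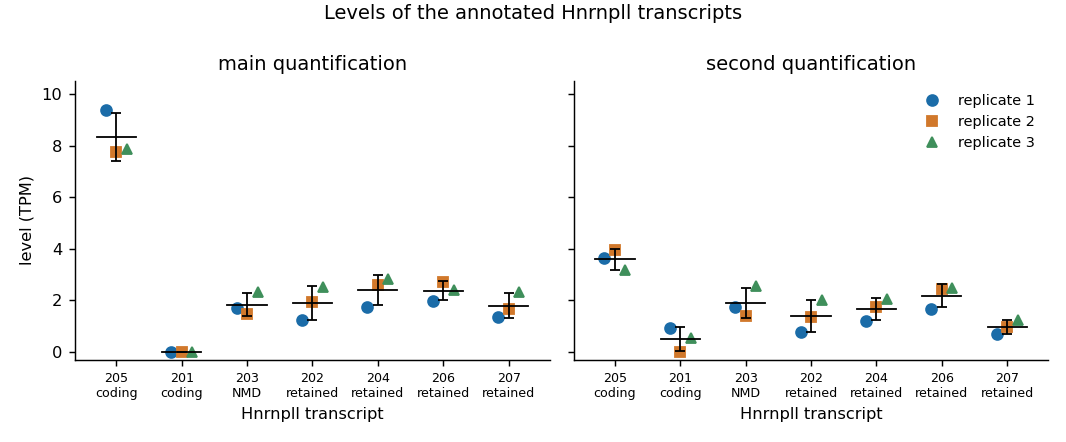
Level in TPM (y axis) of the 7 annotated Hnrnpll transcripts (x axis; NMD, nonsense-mediated decay; retained, retained intron) in the main and the second quantification. Points are replicates, lines are means and bars are SDs. Hnrnpll-205 is highest in every replicate of the main quantification, at 7.73 to 9.38 TPM.

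Other proteins known to act on the CD45 exons were set beside Hnrnpll, as a list of 16 splicing regulators. All 16 were detected at 1 TPM or more in every library, and the median of log2(TPM + 1) over the list was 7.29 ± 0.18 (SD, n = 3 libraries), against 3.94 ± 0.06 over all 12997 genes tested. Hnrnpll was the second lowest of them. The highest by mean were Hnrnpk, which encodes a protein that binds C-rich RNA, at 1715, 1497 and 1299 TPM, and Srsf5, which encodes an SR protein, a class that mostly promotes exon inclusion, at 364.8, 437.6 and 617.2 TPM. Srsf7, next by mean at 414.9, 403.9 and 364.6 TPM, was above Srsf5 in replicate 1, and in replicates 1 and 2 of the second quantification. The lowest was Gsk3a, a kinase that in human T cells keeps the repressor SFPQ from the CD45 RNA, at 7.67, 3.99 and 7.03 TPM. Gsk3b, listed with it as a modulator of Sfpq, was higher at 35.5, 36.65 and 27.1 TPM.

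Among the 6 repressors of the list Hnrnpll was lowest in the main, the second and the M4 quantification. Hnrnpl, which encodes the related repressor hnRNP L, was at 119.7, 139.8 and 178.6 TPM, or 6.88, 7.72 and 8.80 times the Hnrnpll TPM, and 13.7, 12.8 and 13.1 times in the second quantification. By M4 counts per coding base Hnrnpl was at 47.8, Sfpq at 23.1 and Hnrnpll at 21.6, so the distance to Hnrnpl was narrower there. Sfpq, which encodes a repressor that joins the CD45 RNA after T cell activation in human cells, had 31.1, 28.8 and 40.4 TPM. Pcbp2 averaged 164.0 ± 15.4 TPM and Ptbp1, which encodes the polypyrimidine tract binding protein, 151.5 ± 22.9 TPM (SD, n = 3 libraries).

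Against counting noise 15 of the 16 regulators differed between libraries, where 65.3% of all genes did, and none was called with the trended dispersion, where 0 had an unadjusted p below 0.05. The exception was Srsf3 (adjusted p = 0.0904). The 65.3% covers genes averaging as few as 10 counts, where counting noise hides more differences, and no rate at like depth was taken. Srsf5 was highest in replicate 3, at 1.68 times its lowest library after TMM scaling. Of the 16, 8 were highest in replicate 3 and 3 were lowest there, and of all genes tested 40.6% were highest and 40.7% lowest in replicate 3. The libraries were not ordered alike across the repressors: Hnrnpll, Hnrnpl, Sfpq and Pcbp2 were highest in replicate 3 after TMM scaling, Ptbp1 in replicate 2 and Hnrnpk in replicate 1.

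**Figure D5:**
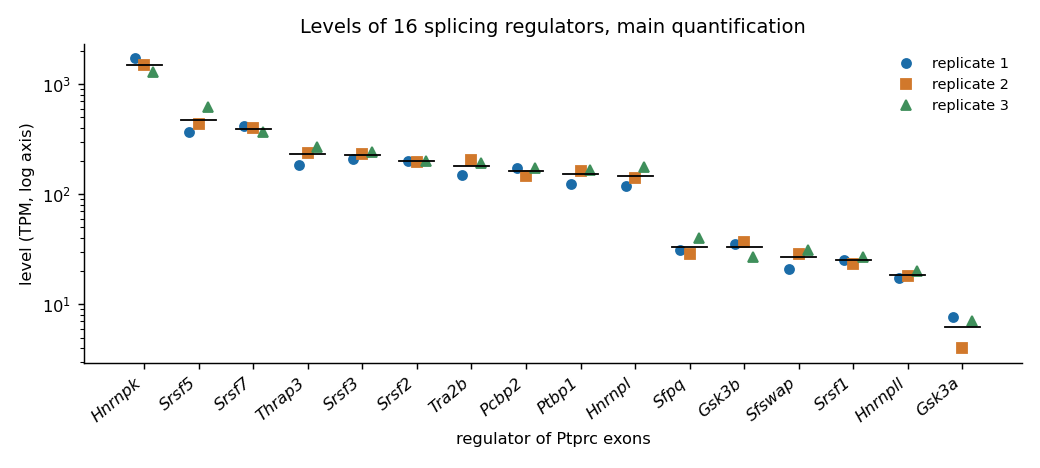
Level in TPM (y axis, log scale) of 16 regulators of Ptprc exons (x axis, ordered by mean) in each replicate of the main quantification. Points are replicates and lines are means. Hnrnpll, at 17.4 to 20.3 TPM, stands second lowest, above Gsk3a.

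Ptprc made up most of the RNA of its enzyme family. Of 21 receptor type tyrosine phosphatases, 6 reached 1 TPM in every library, and Ptprc took 90.5%, 90.9% and 89.3% of their summed TPM in replicates 1, 2 and 3, and 88.4%, 88.9% and 86.7% in the second quantification. Next was Ptpra, which encodes a widely expressed phosphatase that activates Src family kinases, at 45.6, 48.2 and 44.3 TPM, and Ptprc averaged 19.3 times its level. Ptpre averaged 22.5 TPM, Ptprv 13.8 TPM, Ptprs 7.72 TPM and Ptprj 3.68 TPM. The other 15 were below 1 TPM in at least 1 library, and Ptprh, Ptprm, Ptprq and Ptprt were listed at 0 in all 3 in the main quantification, while 0 of the 21 were at 0 in all 3 in the second. Of 7 family members with enough counts to test, 4 differed between libraries against counting noise, among them Ptprc, where 65.3% of all genes did, and none did with the trended dispersion, where 0 had an unadjusted p below 0.05.

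The genes of CD45 substrates and of proteins that oppose it in T cell signalling were all detected, 12 of 12 in every library, with a list median of log2(TPM + 1) of 7.89 ± 0.31 (SD, n = 3 libraries) against 3.94 over all genes tested. Lck, the main substrate, was the highest at 1314, 1428 and 904.8 TPM, and Skap1, an adaptor that binds CD45, had 482.5, 551.3 and 383.7 TPM. Csk, the kinase that puts back the phosphate CD45 removes, was at 114.6, 126.8 and 103.8 TPM. Pag1, which anchors Csk at the membrane, was lowest at 11.3, 16.5 and 12.4 TPM. All 12 differed between libraries against counting noise, where 65.3% of all genes did, including genes of few counts that such a test calls less often. None was called with the trended dispersion, which called 1.15% of all genes. In that test 1 of the 12, Ptpn6, had an unadjusted p below 0.05. Lck, Skap1, Csk and the list as a whole were lowest in replicate 3, as Ptprc was, with 8 of 12 genes lowest there, against 40.7% of all genes tested. Ptpn22, a phosphatase that acts against Lck, went the other way with 276.4, 319.4 and 459.8 TPM.

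Of 5 genes for proteins that bind the outside of CD45, 4 were detected in every library. Cd2 led with 1245, 1307 and 1170 TPM, followed by Lgals1, which encodes galectin-1, with 631.3, 740.2 and 601.1 TPM. Lgals3, which encodes galectin-3, had 33.9, 65.7 and 98.4 TPM, and its 3 libraries differed more than those of Ptprc, by 2.87 times after TMM scaling. Cd22, a B cell lectin, was at 7.27, 10.4 and 6.04 TPM. Mrc1, a macrophage lectin, stayed at 0.42 TPM or below.

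The genes whose levels lay nearest to each member over the 3 libraries were ranked by the Euclidean distance of log2(TPM + 1) among 21898 genes with a protein-coding transcript. For Ptprc they were Arpc1b (distance 0.165; 872.6, 1114 and 807.7 TPM), Sh3bgrl3 (0.191) and Hnrnpa2b1 (0.195). For Ptprcap they were Arpc1b (0.240), Pkm (0.283) and Ppp1ca (0.287). For Hnrnpll they were Rbl1 (0.0462; 17.3, 17.5 and 20.4 TPM), Scoc (0.0499) and Alkbh8 (0.0705). With 3 libraries this distance reflects mostly the mean level.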

How the data were processed

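3 genes, Ptprc, Hnrnpll and Ptprcap, were read from 3 libraries of 1 group, with replicate numbers taken from the sample descriptions. Per the file headers, the authors' main tables of genes and of transcripts hold expected counts, TPM, posterior estimates and, in percent, the share of each transcript in its gene (IsoPct). They rest on transcriptome alignments, gene models of release M21 and genome mm10. A second deposited transcript table holds estimated counts and TPM made from the read files and an index, and the M4 gene table, as deposited, holds raw counts in whole numbers. No source used here names the programs, and each library was deposited without scaling between libraries.

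Transcript IDs were mapped to symbols by the fields of the second table, which gave no symbol to 86 of 55536 genes. Exons, junctions and sequences came from the M21 annotation and transcripts. Shares in the second table were computed from its TPM, and M4 counts were divided by coding bases, on the assumption, stated by no source used here, that they count reads over coding sequence. Expected counts were rounded to whole numbers, and the chi-square test over 3 libraries (2 degrees of freedom) was run for all 12997 genes that averaged 10 counts or more, with TMM factors and trended dispersion from edgeR 4.0.16, DESeq2 1.42.0 size factors as an alternative, R 4.3.3 and Python 3.11.15 with scipy 1.17.1. The trended dispersion comes from these libraries themselves and so holds the differences under test. Transcript shares were tested for 27071 transcripts averaging 10 counts or more, in genes averaging 50 or more, with binomial plus posterior variance. Both used Benjamini-Hochberg adjustment over the whole table and were tested on simulated data. Reads carry no molecular identifiers. The p-values of the gene test cover counting error only, or, with the trended dispersion, also the spread between these libraries. Those of the transcript share test cover counting error and read assignment only. Levels are mean and SD over 3 libraries. Members and their transcripts, the 3 genes nearest to each, and the highest and lowest of each list were named. The members and lists were chosen with earlier results of these data known. Alternatives were other scalings, filters, tables, denominators and leaving out each library. Protein sequences were not used here.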

Additional observations from a re-analysis of the deposited data

How the results depend on the processing

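Levels and shares depend on the table and the denominator. Ptprc averaged 473.6 TPM in the second quantification and 718.8 TPM by posterior mean, Hnrnpll 12.2 and 15.2, and Ptprcap 506.9 and 709.0. By M4 counts per coding base Hnrnpll was at 21.6 and Ptprcap at 1532. Among transcripts spanning exons 3 to 8, Ptprc-203 took 71.9%, Ptprc-207 1.08% and Ptprc-213 9.29%; among protein-coding transcripts they took 71.6%, 1.07% and 9.26%. Ptprc-213 took 9.51% in the second quantification. Genes that differed between libraries numbered 149 with the trended dispersion, and 4187 to 6994 when a library was left out, lowest without replicate 3. Transcript shares that differed numbered 17233 with counting error alone and 21077 of 33090 in the second quantification tested with counting error alone, which changes both the table and the variance, and 558 to 3639 when a library was left out, lowest without replicate 3. With counting error alone the share of Ptprc-207 passed the test (adjusted p = 3.89e-10), as did those of Ptprc-208 and Ptprc-209. Hnrnpll kept its call with DESeq2 size factors (adjusted p = 0.04996), without replicate 1 (0.0222) and by M4 counts (0.00313). It lost the call under total-count scaling (adjusted p = 0.0523), without the count filter (0.313) and in the second quantification (0.150). The cause of these changes was not tested. No paired analysis was possible because there is only 1 group. Depth limits the transcript shares of Hnrnpll, a gene with 311 to 441 expected counts per library, and of the low Ptprc transcripts.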
